A study of Arabidopsis with 36 samples.

Results

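The shoots of Arabidopsis seedlings labelled chl1-5 were compared with the shoots of Col-0 seedlings, all kept at 21 °C, across every gene with a usable level. The comparison held 6 of the 36 RNA-seq libraries of the series, 3 labelled chl1-5 and 3 of Col-0, chosen by the tissue, genotype and temperature in the sample labels and not by any measured value. The labels write the mutant as chl1.5 and title the same libraries nrt1.1. The study uses chl1-5 as a loss-of-function line of NRT1.1, a single mutant allele, and Col-0 as its wild type. Seedlings of both genotypes were 4 days old on ½ MS plates when they were moved, and were then kept for 5 more days at 21 °C under long days. The other libraries came from chl1-5 and Col-0 shoots at 28 °C, from the light signalling mutant hy5-215, and from the roots of all 3 genotypes, with 3 libraries in each of 12 groups. The study's methods call the separated shoot and root samples independent replicates, without saying whether plates, seed lots or days differed. The labels describe pools of around 50 roots per biological replicate and say nothing of how shoots were pooled.

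NRT1.1, also called CHL1, is a plasma membrane nitrate transporter that works at both high and low nitrate, and it doubles as a nitrate sensor that sets off the primary nitrate response. In leaves, nitrate is reduced by nitrate reductase to nitrite and by nitrite reductase to ammonium, which glutamine synthetase and glutamate synthase build into amino acids. Transcription factors of the NLP family switch on the genes of nitrate transport and reduction, and repressors of the LBD and HRS1 families restrain them.

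Values are RPKM, reads scaled to the length of the gene and to the depth of the library, so levels are per length of the gene. The chl1-5 libraries held 73.0, 67.5 and 61.5 M reads and the Col-0 libraries 84.7, 82.0 and 79.7 M reads. Log2 fold changes are chl1-5 minus Col-0 on the log2(RPKM + 1) scale, which understates the change of low genes, and each adjusted p is from limma with Benjamini-Hochberg adjustment over the 16817 genes that averaged at least 1 RPKM over the 18 shoot libraries. A gene was called, and is said to have risen or fallen, at an adjusted p under 0.05. The first principal component of the 6 libraries took 82.1% of the variance and separated the genotypes, and the second, with 9.36%, spread the replicates within each genotype. Spearman correlations were 0.997 to 0.999 within a genotype and 0.986 to 0.989 between genotypes. Replicates differed by more than counting noise, with a chi-square per gene of 2.11 to 5.45 in the mean and 0.758 to 1.25 in the median. None was counted as a repeat of another, but this excess does not show whether the plants were grown apart. Plates and growth of each group are not given, so a difference in them cannot be told apart from genotype. The sum of 5 shoot marker genes was 39527 to 40178 RPKM in chl1-5 shoots and 38774 to 39418 RPKM in Col-0 shoots, against 80.0 to 115 RPKM in Col-0 roots. The sum of 15 root marker genes was 11.8 to 12.2 RPKM in chl1-5 shoots and 13 to 13.5 RPKM in Col-0 shoots, against 486 to 555 RPKM in Col-0 roots, so both groups carried the profile of shoots.

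The first gene examined was NRT1.1 (AT1G12110) itself, because it checks the label. Its transcript was present in shoots labelled chl1-5, at 13.49, 12.97 and 13.79 RPKM, against 17.94, 17.55 and 17.73 RPKM in Col-0 shoots. These values rest on 4311, 3831 and 3715 reads in the chl1-5 libraries and on 6650, 6301 and 6192 reads in the Col-0 libraries. All 3 chl1-5 libraries lay below all 3 Col-0 libraries, yet none approached 0. The log2 fold change was −0.38 (SE 0.03, adjusted p = 1.30e-07). In roots at 21 °C the picture was another one. NRT1.1 had 1, 0 and 0 reads in roots labelled chl1-5, against 70.9, 78.2 and 78.0 RPKM in Col-0 roots, from 22319 to 29013 reads. The difference between genotypes in shoots minus that in roots was 5.88 on the log2 scale (adjusted p = 3.04e-23). At 28 °C the shoots went the opposite way, with 18.8, 19.4 and 18.5 RPKM in chl1-5 and 7.19, 7.53 and 7.19 RPKM in Col-0, which is a rise of 1.26 on the log2 scale (adjusted p = 3.62e-14). For a loss-of-function label the shoot values of NRT1.1 go against expectation, so chl1-5 stands below for the label of these libraries and not for a checked loss of the transcript. The deposited table gives 1 value per gene and no position of reads within it, so a shortened transcript could not be told from a whole one. The hy5-215 shoots at 21 °C had 17.1 to 18.3 RPKM, close to Col-0.

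**Figure D1:**
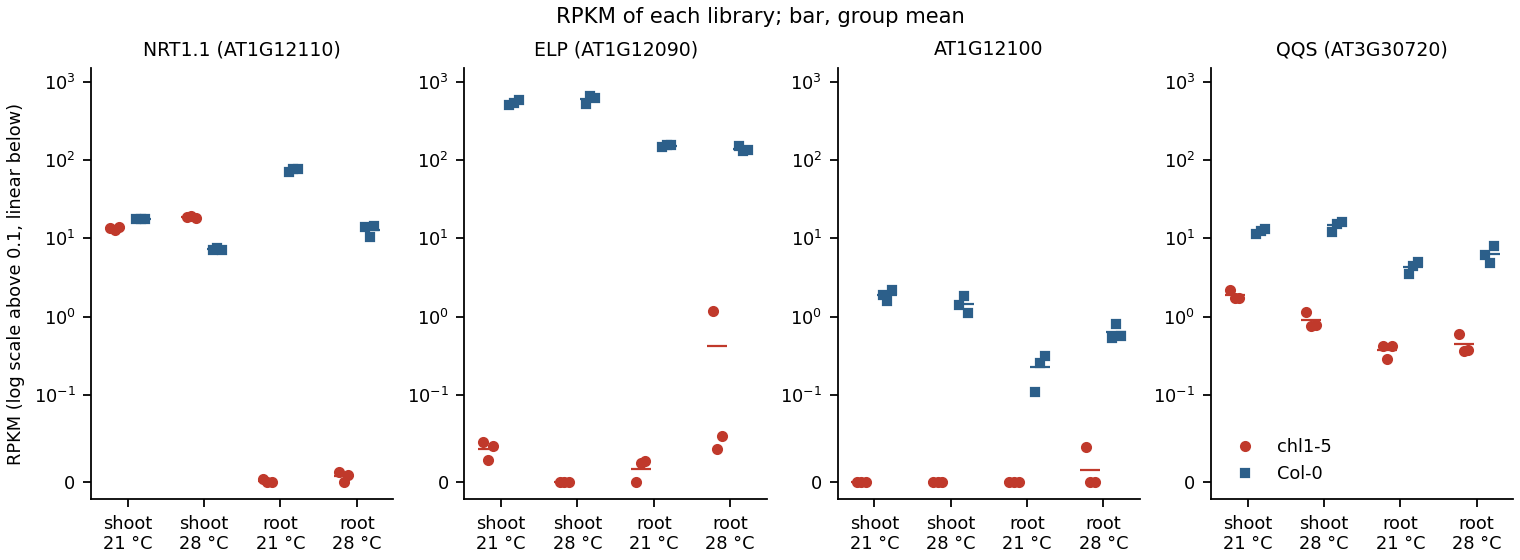
RPKM of NRT1.1, ELP, AT1G12100 and QQS in each library (points) with the group mean (bar), for shoots and roots at 21 and 28 °C, with the libraries labelled chl1-5 in red to the left of Col-0 in blue and a vertical axis that is logarithmic above 0.1 RPKM and linear below. NRT1.1 is near 0 only in chl1-5 roots, while ELP lies far below Col-0 in chl1-5 libraries of both organs at both temperatures.

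A gene that did separate the genotypes without exception lies near NRT1.1. ELP (AT1G12090), which encodes an extensin-like cell wall protein and lies 2 annotated genes before NRT1.1 on chromosome 1, had 4, 2 and 3 reads in chl1-5 shoots at 21 °C and 51871, 52234 and 56139 reads in Col-0 shoots. In RPKM these are 0.0459, 0.0248 and 0.0408 in chl1-5 and 513, 533 and 590 in Col-0, so the lowest Col-0 library exceeded the highest chl1-5 library. The chl1-5 level was 0.00685% of the Col-0 level, with an exact 95% counting interval of 0.00313 to 0.0130%, which covers counting error only. The log2 fold change of −9.04 (SE 0.07, adjusted p = 1.97e-22) was the largest in the comparison. At 28 °C ELP had 0 reads in all 3 chl1-5 shoot libraries, against 46470, 58717 and 45743 reads in Col-0 shoots, and the fold change against Col-0 did not differ between temperatures past the threshold (difference −0.21, adjusted p = 0.084). In roots, ELP had 0, 2 and 2 reads in chl1-5 and 12804, 13574 and 16012 reads in Col-0 at 21 °C. At 28 °C the chl1-5 roots had 113, 4 and 4 reads, against 9544 to 11626 reads in Col-0 roots. The hy5-215 shoots at 21 °C had 551 to 652 RPKM, so the loss was seen in the chl1-5 libraries and not in the other mutant.

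AT1G12100, the gene between ELP and NRT1.1, had 0 reads in every chl1-5 shoot library at 21 °C and 102, 83 and 110 reads in Col-0 shoots, or 1.89, 1.59 and 2.16 RPKM. Set against a floor of 3 reads over the group, it was 80.6-fold lower in chl1-5. The exact 95% counting interval of its chl1-5 level reached up to 1.54% of Col-0. At 28 °C it again had 0 reads in chl1-5 shoots, against 65, 86 and 43 reads in Col-0 shoots. With the same floor it was 67.5-fold lower, and the interval reached up to 1.84% of Col-0. The genes just outside this pair were near their Col-0 levels in shoots at 21 °C. AT1G12080, before ELP, had 34.8, 35.6 and 36.6 RPKM in chl1-5 and 37.6, 37.4 and 38.1 RPKM in Col-0 (−0.08, adjusted p = 0.0779). These libraries did not overlap. AT1G12080 gave −0.47 in shoots at 28 °C (limma adjusted p = 1.39e-08) and −0.49 in roots at 21 °C (limma adjusted p = 7.36e-04). AT1G12120, after NRT1.1, had 19.4, 19.6 and 19.5 RPKM in chl1-5 and 17.8, 17.1 and 16.7 RPKM in Col-0, a rise of 0.17 (adjusted p = 0.00472). Thus a run of 2 adjacent genes was silent or almost silent in chl1-5 shoots, and the genes on either side of them were read at a reduced or ordinary level.

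Of the 30 annotated genes within 15 places on either side of NRT1.1, 22 had values and 13 passed the level filter. Of those 13, 3 rose and 5 fell, beside 20.6% of all tested genes that rose and 27.9% that fell. Those that rose were AT1G12050 (0.12), AT1G12120 and a flavin monooxygenase gene listed as FMO (AT1G12200, 0.18). Besides ELP and AT1G12100, those that fell were AT1G12000 (−0.13), AT1G12020 (−0.19) and FMO GS-OX5 (−0.12), whose enzyme oxidises methylthioalkyl glucosinolates. Over wider windows the share of called genes was 40% within 25 tested genes on each side, 52% from 26 to 50 genes, 56% from 51 to 100 genes and 48% from 101 to 200 genes. By chromosome it ran between 47.6 and 49.7%, so called genes were spread over the genome and not gathered at NRT1.1.

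**Figure D2:**
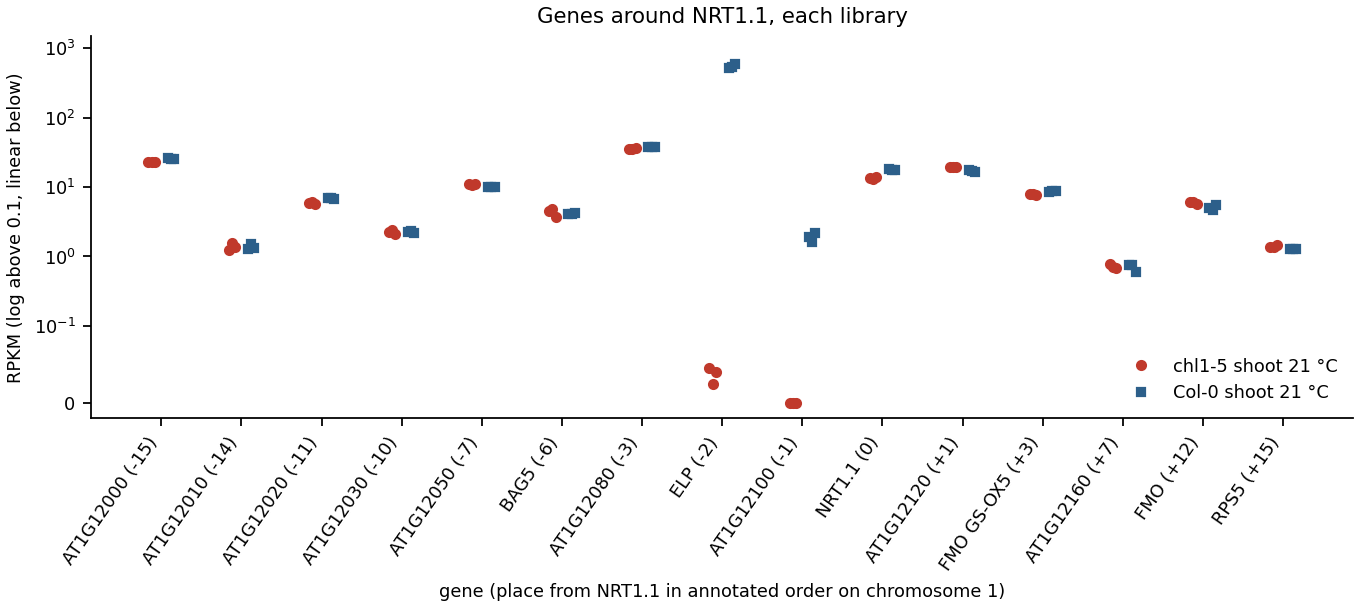
Genes around NRT1.1 in their order on chromosome 1 (horizontal axis, place counted from NRT1.1) with the RPKM of each library labelled chl1-5 (red) and Col-0 (blue) at 21 °C in shoots, on an axis that is logarithmic above 0.1 RPKM and linear below, for genes that reach 0.5 RPKM in some library. ELP at place −2 drops to 0.0459 RPKM or less and AT1G12100 at place −1 to 0, while AT1G12080 at −3 and AT1G12120 at 1 stay near the Col-0 level.

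A search for further genes of this kind, with at most 4 reads in each chl1-5 library and at least 50 in each Col-0 library, found 3 genes in all. The third was MRD1 (AT1G53480), far along the same chromosome, with 1, 0 and 1 reads in chl1-5 shoots and 91, 75 and 135 reads in Col-0 shoots. Its chl1-5 level was 0.811% of Col-0, with a counting interval of 0.0977 to 2.95%. HEI10 (AT1G53490), annotated 2 places from MRD1 and coding for a factor that sets the number of meiotic crossovers, was also low, at 0.472, 0.495 and 0.423 RPKM in chl1-5 and 1.08, 1.1 and 1.03 RPKM in Col-0. MRD1 had 0 to 4 reads in every chl1-5 library of either organ. In the opposite direction, 0 genes had at most 4 reads in each Col-0 library and at least 50 in each chl1-5 library.

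Across the genome the genotypes differed at many genes by little. Of the 16817 genes tested, 8162 (48.5%) were called, 3466 (20.6%) higher and 4696 (27.9%) lower in chl1-5 shoots. The median size of a called change was 0.19 on the log2 scale, 69.9% of called genes changed by under 0.25, and the median standard error was 0.04. The 3 chl1-5 and 3 Col-0 libraries did not overlap at 10200 genes (60.7%), of which chl1-5 was higher at 26.1% of all tested genes and lower at 34.6%. Calls followed the level of the gene, from 38.5% of genes at 1 to 5 RPKM through 50.3% at 5 to 20 RPKM to 69.4% above 100 RPKM. Rescaling each library by the median of ratios gave 4406 higher and 3848 lower, so the balance of directions over all genes depends on the scaling. The counts of each gene list below are to be read against the 48.5% called, 20.6% higher and 27.9% lower, over all genes tested. In whole shoots, fewer cells of a type and less RNA per cell cannot be told apart.

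Larger changes were few on the log2(RPKM + 1) scale. At an adjusted p under 0.05 and above 2-fold, 10 genes rose (0.0595%) and 27 fell (0.161%). These counts depend on how low genes are treated, with 25 higher and 51 lower at a pseudocount of 0.1 and 39 higher and 62 lower with limma voom on recovered reads. Above 1.5-fold, 90 genes rose (0.535%) and 95 fell (0.565%).

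**Figure D3:**
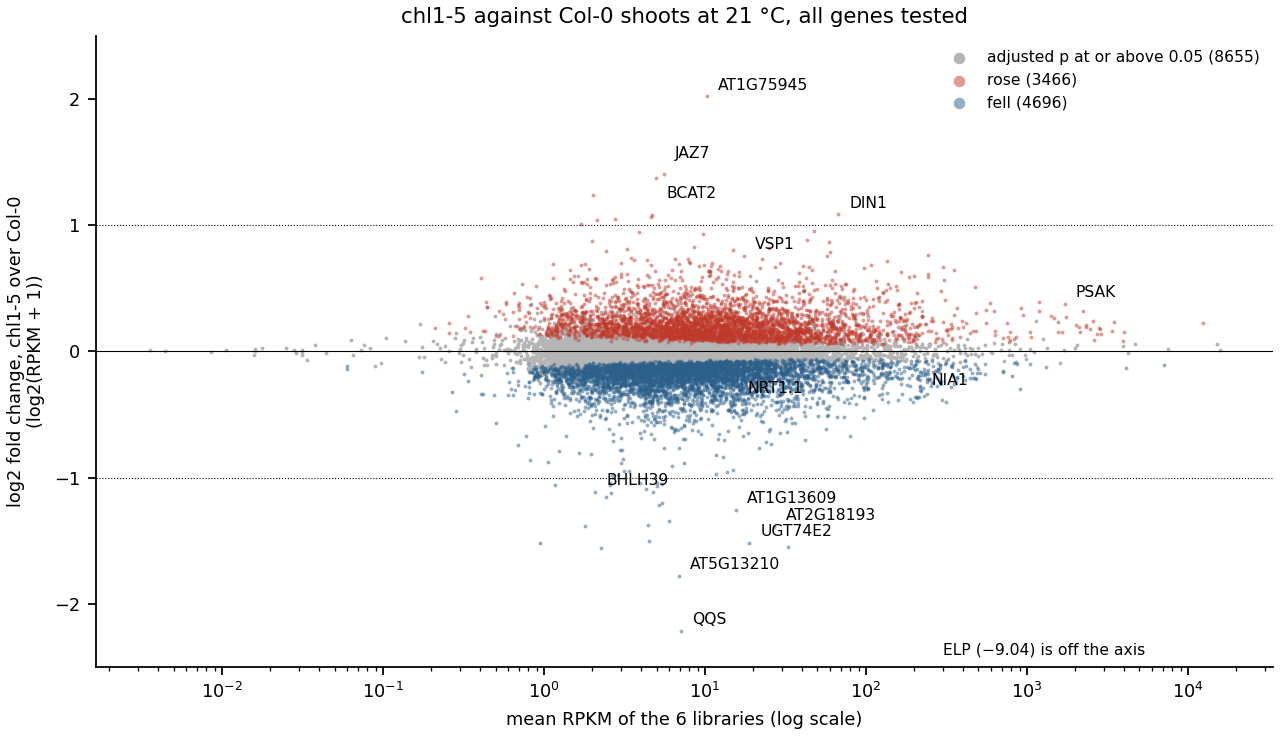
Log2 fold change of chl1-5 over Col-0 shoots at 21 °C (vertical) against the mean level of each tested gene (horizontal, log scale), with 3466 called higher in red, 4696 called lower in blue and 8655 not called in grey. Dotted lines mark 2-fold, ELP at −9.04 lies off the axis, and most called genes sit well inside the dotted lines.

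Among genes of at least 5 RPKM in either genotype, the gene that rose most was AT1G75945, with 18.19, 19.96 and 13.09 RPKM in chl1-5 and 2.65, 3.54 and 4.11 RPKM in Col-0 (2.02, SE 0.15, adjusted p = 9.40e-09). JAZ7, a repressor of jasmonate responses, followed, with 8.61, 8.51 and 8.38 RPKM in chl1-5 and 2.67, 2.51 and 2.57 RPKM in Col-0 (1.41, adjusted p = 1.65e-07). BCAT2, a branched-chain amino acid aminotransferase, had 7.73, 7.56 and 7.48 RPKM in chl1-5 and 2.16, 2.53 and 2.27 RPKM in Col-0 (1.37, adjusted p = 3.47e-13). Apart from AT1G75945, the replicates of these genes lay close together and far from the other genotype. DIN1, a classic dark- and starvation-induced gene of leaves, was the most abundant of the 12, with 90.42, 90.09 and 93.81 RPKM in chl1-5 and 42.1, 44.1 and 41.5 RPKM in Col-0 (1.09, adjusted p = 2.85e-14). The other 8 were AT4G14060 (1.08), AT4G22230 (1.07), AT2G15960 (0.95), AT1G36060 (0.95), AT3G22240 (0.93), AT3G62550 (0.88), AT1G66100 (0.87) and AT1G70880 (0.83). Below 5 RPKM, and chosen after their values were seen, THA1, which codes for threonine aldolase, had 3.25, 3.3 and 3.19 RPKM in chl1-5 and 0.837, 0.713 and 0.847 RPKM in Col-0 (1.24), and the β-glucosidase gene DIN2 had 3.31, 3.32 and 3.01 RPKM in chl1-5 and 0.995, 1.04 and 1.09 RPKM in Col-0 (1.05).

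After ELP, the gene that fell most on this scale among genes of at least 5 RPKM in either genotype was QQS (AT3G30720), a gene known to affect how carbon and nitrogen are shared between starch and protein in leaves. It had 2.19, 1.74 and 1.74 RPKM in chl1-5 and 11.5, 12.6 and 13.1 RPKM in Col-0 (−2.21, SE 0.12, adjusted p = 2.07e-10). AT5G13210 had 2.61, 2.59 and 2.43 RPKM in chl1-5 and 10.9, 11.3 and 11.4 RPKM in Col-0 (−1.78). UGT74E2, which codes for a glucosyltransferase that acts on the auxin precursor indole-3-butyric acid, had 9.59, 9.16 and 9.07 RPKM in chl1-5 and 28.67, 28.48 and 28.12 RPKM in Col-0 (−1.52, SE 0.06, adjusted p = 2.93e-12). In each of these the lowest Col-0 library was well above the highest chl1-5 library. DTX1, an efflux carrier of the MATE family, had 3.06, 2.74 and 2.94 RPKM in chl1-5 and 7.74, 8.22 and 7.96 RPKM in Col-0 (−1.20). Its neighbour AT2G04050 had 16.5, 15.8 and 15.9 RPKM in chl1-5 and 49.3, 49.1 and 48.8 RPKM in Col-0 (−1.55). The other 6 of the 12 were AT2G04070 (−1.51), AT2G18193 (−1.39), AT4G12735 (−1.37), AT2G41730 (−1.34), AT1G13609 (−1.26) and AT5G51440 (−1.22). Of the 37 genes past 2-fold (0.22%), 4 adjacent pairs fell together, namely ELP with AT1G12100, DTX1 with AT2G04050, AT2G18190 with AT2G18193, and BHLH38 with BHLH39. How reads from near-identical neighbours were shared in counting is not given in the sources used here, so members of such pairs may not be independent.

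Most genes of nitrate reduction were lower in chl1-5 shoots. Of the 15 listed genes of nitrate reduction and its supply of electrons and cofactor, all tested, 0 rose and 10 fell, with a median of −0.14 against −0.02 over all genes tested. The nitrate reductase gene NIA1 had 193, 192 and 198 RPKM in chl1-5 and 246, 243 and 237 RPKM in Col-0 (−0.32, SE 0.03, adjusted p = 4.27e-08). The nitrite reductase gene NIR1 had 196 RPKM in each chl1-5 library and 238, 237 and 236 RPKM in Col-0 (−0.27, adjusted p = 1.79e-09). In neither gene did the genotypes overlap, though the changes were under 1.5-fold. G6PD3 (−0.34), a plastid glucose-6-phosphate dehydrogenase that supplies reductant, and RFNR1 (−0.25), a root-type ferredoxin-NADP reductase, fell as well. NIA2, named after its values were seen as the more abundant nitrate reductase gene, had 456, 456 and 461 RPKM in chl1-5 and 524, 513 and 509 RPKM in Col-0 (−0.17, adjusted p = 4.13e-04). The 5 that did not pass the test were RFNR2, the molybdenum cofactor genes CNX2, CNX3 and CNX7, and HB1, a non-symbiotic haemoglobin.

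Of 23 listed nitrate transport genes 16 were tested, of which 4 rose and 4 fell, and their median was −0.01. The 50.0% called is near the 48.5% over all genes. Beside NRT1.1, those that fell were CLC-B (−0.40), a tonoplast channel-type carrier of the CLC family, NRT3.1 (−0.37), the partner protein of the high-affinity NRT2 transporters, and NRT1.7, which reloads nitrate into leaf phloem. NRT1.7 had 5.57, 5.33 and 5.36 RPKM in chl1-5 and 7.47, 7.24 and 7.28 RPKM in Col-0 (−0.38, adjusted p = 4.71e-08). NRT1.8, which withdraws nitrate from xylem sap, was low in both genotypes, at 0.609, 0.598 and 0.649 RPKM in chl1-5 and 0.173, 0.383 and 0.261 RPKM in Col-0 (0.35). SLAH2 (0.12), NRT1.11 (0.11) and NPF6.2 (0.09) rose slightly. NRT1.5, which loads nitrate into root xylem, had 17.2, 16.8 and 16.7 RPKM in chl1-5 and 17.71, 17.77 and 17.61 RPKM in Col-0, and missed the threshold (−0.06, adjusted p = 0.0543). NRT2.1, the main high-affinity transporter of roots, was below the level filter, as were the phosphate transporter PHT1;8 and the phosphate starvation RNA IPS1.

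In the assimilation of ammonium, glutamate synthase genes fell while ASN1 and the glutamate dehydrogenase genes rose. Of 17 tested genes on the list, 6 rose and 5 fell, with a median of −0.06. ASN1, the asparagine synthetase gene that is induced in darkness and under sugar shortage, had 31.9, 31.8 and 32.7 RPKM in chl1-5 and 18.46, 17.43 and 17.57 RPKM in Col-0 (0.82, SE 0.03, adjusted p = 8.41e-13). The glutamate dehydrogenase genes rose too, GDH1 with 20.6, 20.4 and 20.5 RPKM in chl1-5 and 14.2, 15 and 15.1 RPKM in Col-0 (0.45), and GDH2 with 83.0, 84.6 and 83.4 RPKM in chl1-5 and 64.5, 64.6 and 64.1 RPKM in Col-0 (0.37). The glutamate synthases GLT1 (−0.25) and GLU1 (−0.21) fell, as did the ammonium transporter AMT1;2 (−0.27) and the asparagine synthetase ASN3 (−0.23). The plastid glutamine synthetase GLN2, singled out after its values were seen, had 794, 789 and 816 RPKM in chl1-5 and 824, 821 and 804 RPKM in Col-0 (−0.03, adjusted p = 0.395), while the cytosolic GLN1;2 rose by 0.13.

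Of 25 tested regulators of the nitrate response, 6 rose and 4 fell, with a median of 0.03, so 40.0% were called against 48.5% of all genes. BT1 and BT2, which code for BTB and TAZ domain proteins that dampen nitrate uptake, rose. BT1 had 129, 134 and 116 RPKM in chl1-5 and 89.44, 92.06 and 100.7 RPKM in Col-0 (0.42, adjusted p = 1.06e-04), and BT2 had 115, 114 and 108 RPKM in chl1-5 and 90.7, 91.8 and 94.7 RPKM in Col-0 (0.28). CIPK23, the kinase that phosphorylates NRT1.1, rose by 0.27 and the repressor LBD37 by 0.13. NLP6 (−0.15), NLP4 (−0.13) and NLP8 (−0.12) fell. NLP7, the central activator of the nitrate response, had 13.4, 14 and 13.8 RPKM in chl1-5 and 14.5, 13.7 and 14.2 RPKM in Col-0, which overlapped (−0.04, adjusted p = 0.377).

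Of 17 tested phosphate genes, 2 rose and 7 fell, with a median of −0.09, and the 52.9% called is near that over all genes. The phosphate transporters PHT1;4 (−0.47) and PHT1;1 (−0.32), the acid phosphatase PAP17 (−0.46) and the sulpholipid synthase SQD1 (−0.25) fell most. PHT1;4 had 1.31, 1.32 and 1.34 RPKM in chl1-5 and 2.29, 2.07 and 2.32 RPKM in Col-0. NLA, a ubiquitin ligase that marks phosphate transporters for breakdown, had 7.83, 8.72 and 7.92 RPKM in chl1-5 and 5.94, 5.90 and 6.21 RPKM in Col-0 (0.38), and the phosphate sensor SPX4 rose by 0.20. PHO1, which loads phosphate into xylem, fell by 0.15 (adjusted p = 0.00655).

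Genes of sugar starvation were mostly higher. Of 19 tested, 13 rose and 2 fell, and the median was 0.24. Beside BCAT2, DIN1 and DIN2, the transcription factor gene BZIP1 had 54.7, 57.1 and 51 RPKM in chl1-5 and 33, 32.5 and 35.8 RPKM in Col-0 (0.67, adjusted p = 9.74e-09). The AKINBETA1 subunit of the energy-sensing kinase SnRK1 (0.49), MCCA of leucine breakdown (0.45) and DIN4 of branched-chain amino acid breakdown (0.39), all outside the 4 largest, rose as well. BZIP11, another bZIP factor, had 7.65, 8.94 and 6.49 RPKM in chl1-5 and 9.05, 9.41 and 11.4 RPKM in Col-0 (−0.34, adjusted p = 0.0279), and the proline dehydrogenase gene ERD5 fell by 0.16. The list was chosen with earlier results of these libraries known, so its count is a description.

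Among iron genes, the deficiency response was lower and iron storage higher. Of 19 tested, 2 rose and 11 fell, with a median of −0.21. The 4 bHLH factors that are switched on by iron shortage were all lower. BHLH39 had 0.986, 1.13 and 0.751 RPKM in chl1-5 and 3.39, 3.18 and 3.09 RPKM in Col-0 (−1.11, SE 0.06, adjusted p = 1.62e-10). BHLH38 had 0.430, 0.428 and 0.349 RPKM in chl1-5 and 1.9, 2.04 and 1.84 RPKM in Col-0 (−1.06). BHLH100 had 1.52, 1.63 and 1.7 RPKM in chl1-5 and 4.49, 4.03 and 3.94 RPKM in Col-0 (−0.98), and BHLH101 fell by 0.61. IRT1, the iron uptake transporter of the root surface, had 1.43, 1.28 and 1.22 RPKM in chl1-5 and 3.60, 3.96 and 3.93 RPKM in Col-0 (−1.06, adjusted p = 4.07e-11). OPT3, which moves iron into phloem and like BHLH101 was named beyond the 4 largest, had 27.7, 27.6 and 28.6 RPKM in chl1-5 and 42.9, 41.9 and 40.9 RPKM in Col-0 (−0.57). The ferritin genes went up, FER1 with 251, 247 and 261 RPKM in chl1-5 and 194, 189 and 190 RPKM in Col-0 (0.40), and FER4 with 23.46, 22.67 and 22.69 RPKM in chl1-5 and 15.48, 16.22 and 16.04 RPKM in Col-0 (0.50).

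Root transcripts in the shoot libraries bear on the iron genes, since IRT1 is a root gene. The IRT1 level was 1.15 to 1.35% of its Col-0 root level in chl1-5 shoots and 3.38 to 3.73% in Col-0 shoots. Shares here are all of Col-0 roots, though chl1-5 roots held less IRT1, a mean of 57 against 106 RPKM at 21 °C. The summed level of 7 root hair genes was 0.641 to 0.843% of its Col-0 root level in chl1-5 shoots and 1.43 to 1.59% in Col-0 shoots, and 7 of 7 were lower without overlap, beside 34.6% of all tested genes. These 7 were below the level filter, so that share is over other genes, with higher levels. The sum of 5 Casparian strip genes was 3.66 to 3.75% in chl1-5 shoots and 3.31 to 3.48% in Col-0 shoots, with CASP1 higher and CASP5 lower without overlap. Over the whole list of 15 root markers, 10 were lower without overlap, PIN2 and WOX5 among them, 1 was higher and 4 overlapped. Only 2 of the 15 passed the level filter. BHLH39 in Col-0 shoots stood at 39.0 to 42.8% and BHLH38 at 77.1 to 85.5% of the Col-0 root level, far above these sums and above IRT1. The part of root transcripts in the iron values was not tested.

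Of 42 photosynthesis genes, all tested, 27 rose and 4 fell, with a median of 0.15. With quantile normalization 10 rose and 6 fell and the median was 0.02, while 3968 of all 16817 genes rose, so the excess of higher genes was not seen under that scaling. PSAK, a photosystem I subunit, had 1958, 1897 and 1952 RPKM in chl1-5 and 1492, 1488 and 1489 RPKM in Col-0 (0.38, adjusted p = 1.24e-07). The photosystem I genes PSAO (0.32) and PSAN (0.28) and the photosystem II gene PSBQ2 (0.28, named beyond the 4 largest) rose too. PSAG gave the largest value, 0.51, but its libraries overlapped, at 590, 624 and 459 RPKM in chl1-5 and 338, 368 and 470 RPKM in Col-0. The 4 that fell belong to carbon fixation, namely rubisco activase RCA (−0.14), the glyceraldehyde-3-phosphate dehydrogenases GAPA and GAPB (−0.10 each) and the rubisco small subunit RBCS1B (−0.08).

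Jasmonate genes leaned upward. Of 21 tested, 12 rose and 4 fell, with a median of 0.15. The vegetative storage protein genes, which mark jasmonate response in leaves, were higher, VSP1 with 22.7, 22.3 and 21.7 RPKM in chl1-5 and 12.8, 12.5 and 12.8 RPKM in Col-0 (0.76, adjusted p = 7.73e-13), and VSP2 with 49.1, 51.1 and 50.2 RPKM in chl1-5 and 31.3, 30.7 and 30.8 RPKM in Col-0 (0.68). JAZ9 rose by 0.45. The lipoxygenases went the other way, and LOX2, which starts jasmonate synthesis in leaves, fell by 0.41 (adjusted p = 4.89e-10), with LOX3 (−0.23), JAR1 (−0.19) and LOX4 (−0.10). Of 11 tested genes of salicylic acid defence, 0 rose and 2 fell. The wall-associated kinase gene WAK1 had 0.624, 0.614 and 0.690 RPKM in chl1-5 and 1.85, 1.84 and 1.84 RPKM in Col-0 (−0.79), and PR5 had 5.48, 4.45 and 4.61 RPKM in chl1-5 and 9.20, 8.83 and 8.65 RPKM in Col-0 (−0.76).

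Of 15 tested flavonoid genes, 1 rose, 7 fell and 7 did not pass the test, with a median of −0.17. Chalcone synthase CHS, the entry enzyme, had 35.5, 34.5 and 36.1 RPKM in chl1-5 and 48.6, 48.0 and 47.5 RPKM in Col-0 (−0.43, adjusted p = 1.23e-06). The flavonol synthase FLS1 (−0.43), the ligase 4CL3 (−0.30) and the glycosyltransferase UGT78D1 (−0.28) fell with it. The 1 that rose, MYBL2, is a repressor of anthocyanin synthesis, with 94.8, 97.6 and 96.6 RPKM in chl1-5 and 69.2, 69.2 and 68.3 RPKM in Col-0 (0.48, adjusted p = 3.52e-10). Of 29 tested glucosinolate genes, 6 rose and 6 fell, and the median was −0.01.

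All 9 genes of cell division on the list were tested, of which 0 rose and 8 fell, with a median of −0.21. KN, the syntaxin of the dividing cell plate, had 21.7, 21.6 and 21.8 RPKM in chl1-5 and 30.5, 29.6 and 28.5 RPKM in Col-0 (−0.43, adjusted p = 2.29e-07). The cyclin CYCB1;2 (−0.32) and the mitotic regulator CDC20.1 (−0.24) fell less, and CDKB1;1 gave −0.10 (adjusted p = 0.347). Of 10 tested markers of the stomatal lineage and trichomes, 1 rose and 4 fell. SPCH, which starts the stomatal lineage, had 2.09, 1.98 and 2.16 RPKM in chl1-5 and 3.48, 3.18 and 2.94 RPKM in Col-0 (−0.45), SDD1 fell by 0.41 and TMM by 0.34, while the stomatal signal EPFL9 rose by 0.31. Summed over 6 markers each, dividing cells gave 57.2 to 58.6 RPKM in chl1-5 and 71.6 to 73.5 RPKM in Col-0, and the stomatal lineage 23.7 to 24 RPKM in chl1-5 and 29 to 29.7 RPKM in Col-0. Of the stomatal markers, SPCH and TMM were lower without overlap and the other 4 overlapped. FAMA, EPF1 and EPF2 did not pass the test, so the lower sum does not hold for each marker. The sum of trichome markers overlapped, at 4.24 to 4.83 RPKM in chl1-5 and 4.62 to 4.84 RPKM in Col-0. Taken singly, GL1 and GL2 were lower and TRY was higher in chl1-5, each without overlap.

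Hormone genes of growth were mixed. Of 10 tested cytokinin genes, 2 rose and 5 fell. The nitrate-responsive cytokinin synthesis gene IPT3 had 4.65, 4.50 and 3.86 RPKM in chl1-5 and 6.5, 6.85 and 6.99 RPKM in Col-0 (−0.55, adjusted p = 1.24e-07), and the response regulator ARR7 fell by 0.35. Of 25 tested genes of PIF and auxin growth control, 11 rose and 7 fell. SAUR24, an auxin-induced growth gene, had 16.6, 17.5 and 14.7 RPKM in chl1-5 and 10.5, 10.4 and 10.8 RPKM in Col-0 (0.58), whereas the auxin synthesis gene YUC8 (−0.48) and the wall enzyme gene XTR7 (−0.43) fell. PIF4, the factor of warm-temperature growth, had 48.2, 48.1 and 47.8 RPKM in chl1-5 and 45.2, 45.1 and 43.7 RPKM in Col-0 (0.10, adjusted p = 0.0029). HY5, the light signalling factor, had 5.15, 5.39 and 5.26 RPKM in chl1-5 and 4.67, 4.99 and 4.77 RPKM in Col-0 and did not pass the test (0.11, adjusted p = 0.115).

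Of 17 tested heat shock genes, 3 rose and 9 fell, with a median of −0.12. The mitochondrial small heat shock protein gene HSP23.6 changed most, with 0.405, 0.350 and 0.617 RPKM in chl1-5 and 1.63, 1.9 and 1.48 RPKM in Col-0 (−0.88, adjusted p = 6.67e-09). HSP70 (−0.32) and the plastid chaperone CLPB3 (−0.30) fell and the heat shock factor HSFA7A rose by 0.35. Genes of abscisic acid, drought and cold split into 8 that rose and 6 that fell among 25 tested. LTI30 (0.60) and RAB18 (0.39), which code for dehydrins, and the NAC factor RD26 (0.52) rose, and the abscisic acid synthesis gene NCED3 (−0.42) and COR15A (−0.30) fell. Sulphur genes split 7 up and 3 down among 16, with LSU3, a marker of sulphur shortage, up by 0.41 and its regulator SLIM1 down by 0.27. Of 5 tested hypoxia genes 2 rose and 0 fell, led by LBD41 (0.57). The 28 tested clock genes split evenly, 7 up and 7 down, with LHY (−0.37), PRR9 (−0.29) and RVE7 (0.31) the largest. SOC1, the 1 flowering gene tested, had 12.4, 12.4 and 10.5 RPKM in chl1-5 and 8.04, 8.31 and 9.99 RPKM in Col-0 (0.38, adjusted p = 0.0113).

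**Figure D4:**
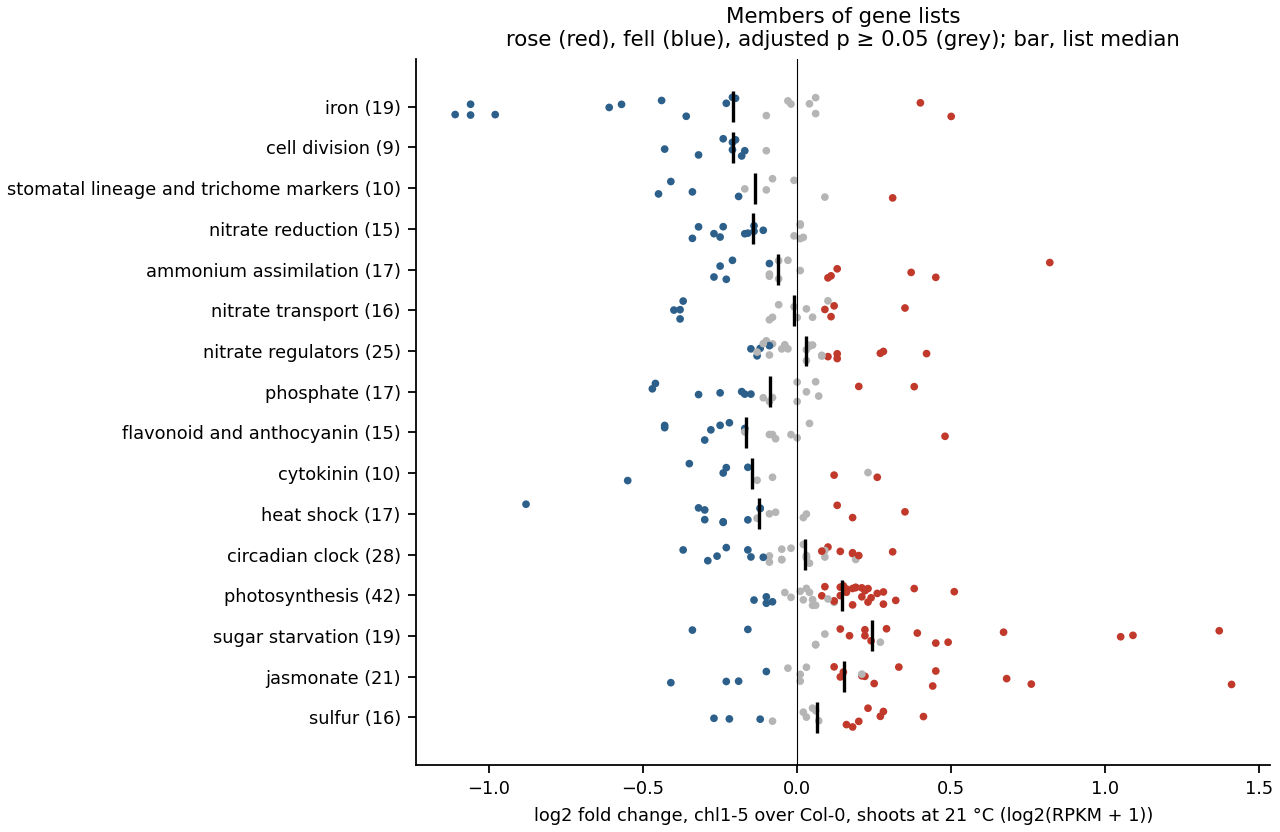
Log2 fold change of chl1-5 over Col-0 shoots at 21 °C for the tested members of 16 gene lists, 1 point per gene, with the bar at the median of the list. The medians run from 0.24 for sugar starvation to −0.21 for iron, and most single genes lie within 0.5 of 0.

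The same genotypes were also grown at 28 °C, with their own controls, so each change at 21 °C can be set beside its value there. At 28 °C, 8021 genes (47.7%) were called, 4009 (23.8%) higher and 4012 (23.9%) lower in chl1-5 shoots. The difference between genotypes depended on temperature at 9462 genes (56.3%), with 5127 (30.5%) relatively higher and 4335 (25.8%) relatively lower in chl1-5 at 28 °C. With median-of-ratios scaling 4377 were higher and 5136 lower, so the balance turned round. Of the 8162 genes called at 21 °C, 1396 were called in the same direction at 28 °C, 3245 in the opposite direction and 3521 not at all. Across the 16817 genes, which are not independent replicates, Pearson's r of the log2 fold changes at both temperatures was −0.03, or −0.17 without ELP and AT1G12100, and 38.3% had the same sign.

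Of the 37 genes past 2-fold at 21 °C, 32 depended on temperature, including 10 of 10 that rose and 22 of 27 that fell. The 21 °C values that chose these genes enter that difference, so the count is a description. Some had little transcript at 28 °C in either genotype, such as AT2G04070 with shoot means of 0.0699 RPKM in Col-0 and 0.122 RPKM in chl1-5. BCAT2 gave 0.07 and JAZ7 0.27 at 28 °C, neither called, and DIN1 rose by 0.34. UGT74E2 (0.68), AT2G18193 (0.65) and AT2G04050 (0.45) were higher in chl1-5 at 28 °C after being lower at 21 °C, and AT3G22240 (−0.61) and AT4G14060 (−0.43) showed the reverse. Of the 15 nitrate reduction genes, 4 rose and 3 fell at 28 °C, with a median of −0.05, and 3 of the 10 that fell at 21 °C fell again. NIA1 (0.42), NIA2 (0.36) and NIR1 (0.13) were among those that rose there. The 8 of 15 that depended on temperature are no larger a share than over all genes, and 8 of those 8 were relatively higher at 28 °C. Of 42 photosynthesis genes, 4 rose and 17 fell at 28 °C, and 27 were relatively lower there. Their excess of higher genes at 21 °C, which enters that last count, was not seen with quantile normalization. SAUR24 gave −0.90 and NCED3 0.69 at 28 °C. The iron regulators BHLH39 (−0.54) and BHLH38 (−0.58) were lower in chl1-5 at 28 °C too, by less than at 21 °C, and BHLH101 gave −0.04 (adjusted p = 0.511). IRT1 was lower at both temperatures, at 0.0747 to 0.092 RPKM in chl1-5 and 0.512 to 0.636 RPKM in Col-0 at 28 °C, levels at which the log2(RPKM + 1) scale understates the ratio. Of the 13 sugar starvation genes that rose at 21 °C, 8 also rose at 28 °C.

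**Figure D5:**
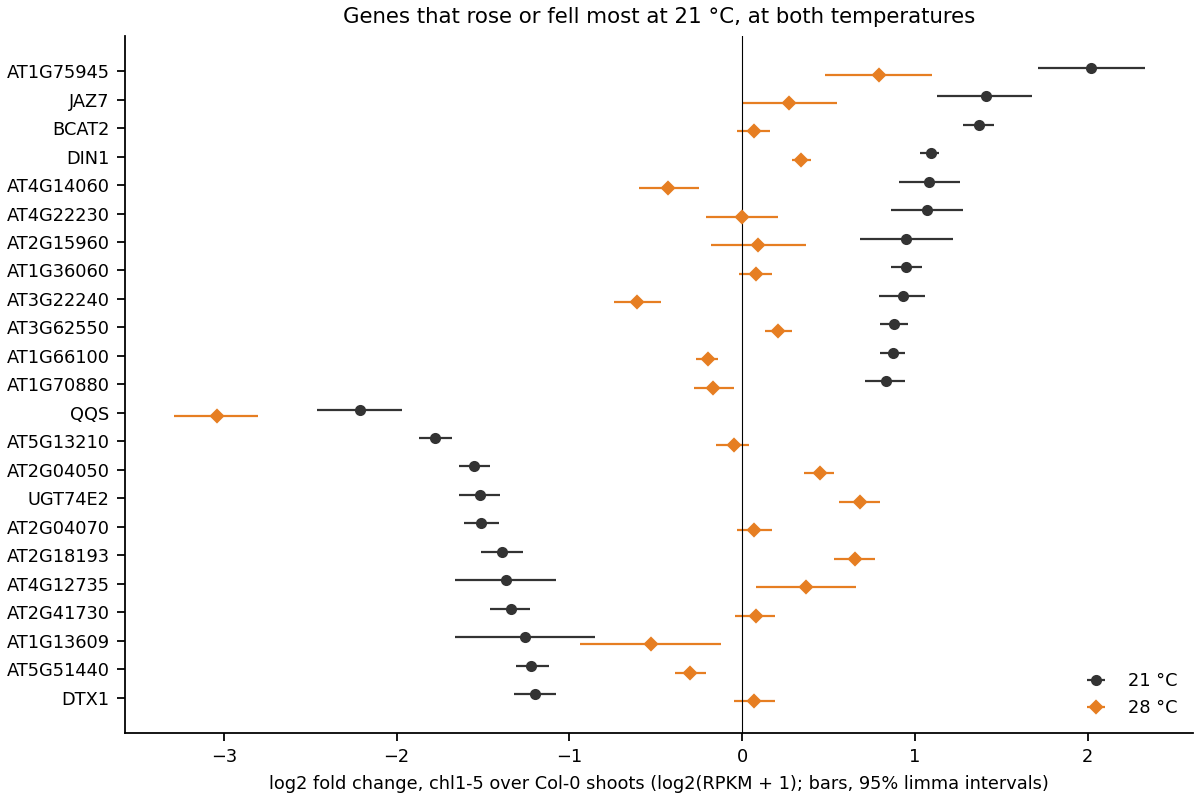
Log2 fold change of chl1-5 over Col-0 shoots at 21 °C and at 28 °C for the genes that rose or fell most at 21 °C (ELP left out), with 95% limma intervals. Most genes lie nearer to 0 or across it at 28 °C, as UGT74E2 does at −1.52 and 0.68, while QQS stays low at −2.21 and −3.04.

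A small set of genes differed alike in both organs and at both temperatures. Of 15646 genes tested in shoots and roots, 49 were called in the same direction in all 4 comparisons of chl1-5 with Col-0, 21 higher and 28 lower. In roots alone, 16.6% of genes were called higher and 11.7% lower in chl1-5 at 21 °C, and 6.68% higher and 2.75% lower at 28 °C. ELP, QQS and ATKDSA2 were past 2-fold in all 4, and AT3G61610 and AT1G75945 past 1.5-fold. QQS gave −2.21 and −3.04 in shoots and −1.93 and −2.31 in roots, at 21 and 28 °C. ATKDSA2, which makes the cell wall sugar acid KDO, had 1.05, 1.36 and 0.962 RPKM in chl1-5 shoots and 3.66, 3.86 and 3.60 RPKM in Col-0 shoots at 21 °C (−1.15), and gave −1.35 in shoots at 28 °C and −1.6 and −1.3 in roots. AT3G61610 had 2.29, 2.38 and 2.05 RPKM in chl1-5 shoots and 5.33, 5.85 and 5.87 RPKM in Col-0 shoots at 21 °C (−1.04). AT1G75945 was higher throughout, by 2.02 and 0.79 in shoots and by 1.84 and 1.88 in roots. The hy5-215 shoots at 21 °C had 40.2, 30.9 and 34.6 RPKM of QQS and 0.145, 0.347 and 0.159 RPKM of AT1G75945, so neither gene held the Col-0 level in that mutant.

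At 21 °C the difference between genotypes in shoots departed from that in roots at 5700 of 18173 genes (31.4%), 2095 (11.5%) higher and 3605 (19.8%) lower in shoots. The balance turned round with median-of-ratios scaling, at 3274 higher and 2556 lower, and was near even with quantile normalization, at 2677 higher and 2544 lower. DIN1 gave 1.09 in shoots and −1.18 in roots, a difference of 2.27 (SE 0.40, adjusted p = 9.78e-05). BCAT2 differed by 2.05 and AT1G36060 by 1.4 in the same direction, and AT5G13210 by −2.09 (SE 0.10, adjusted p = 3.69e-15), AT2G04050 by −1.55 and UGT74E2 by −1.05 in the other. Root means of AT2G04050 were 0.0689 RPKM in Col-0 and 0.0641 RPKM in chl1-5, so its difference mostly restates the shoot value.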

How the data were processed

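Shoot RNA-seq libraries were taken as deposited. RPKM values were made and deposited by the authors, with STAR 2.7.0a, edgeR 3.36.0 and TAIR10 named in the submitters' processing notes, and every sample column was used. Whole reads were recovered from 99.9956% of values above 0, within 0.01 read. Depths ran from 61.5 to 84.7 M reads. Of 24532 genes, 24516 matched the RefSeq table (TAIR10.1), used for names, gene order and the gene lengths that turned RPKM into reads and depths. For 17 genes another length was used.

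Log2(RPKM + 1) of 18 shoot libraries in 6 groups was fitted with limma 3.58.1 (trend), and contrasts were tested with Benjamini-Hochberg adjustment over genes averaging at least 1 RPKM. Roots were fitted alone, and both organs together for the organ difference. The fit was tested on simulated data. Members and gene lists were chosen with earlier results of these data known. Genes named were NRT1.1, its neighbours, the genes at 0 in 1 genotype, genes the study names, the 12 that rose and 12 that fell most (at least 5 RPKM, no overlap), and up to 4 called members per list and direction. NIGT1.1 and HHO2 are not paired with an ID in the table and are not reported. A planned count of promoter motifs was not run. Alternatives changed the pseudocount, filter, scaling, trend, block, samples and test (limma voom on recovered reads).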

Additional observations from a re-analysis of the deposited data

Results flagged for a closer look

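The genotype difference in shoots depended on temperature for 24 named genes, by limma's test of 28 minus 21 °C, with adjusted p from 3.88e-13 to 3.11e-02, among 9462 genes in all. It was higher at 28 °C for NRT1.1 (1.64) and for the genes that fell at 21 °C, namely AT5G13210 (1.73), AT2G04050 (2.00), UGT74E2 (2.2), AT2G04070 (1.57), AT2G18193 (2.04), AT4G12735 (1.75), AT2G41730 (1.42), AT1G13609 (0.73), AT5G51440 (0.92) and DTX1 (1.27). It was lower at 28 °C for QQS (−0.83) and for the genes that rose at 21 °C, namely AT1G75945 (−1.23), JAZ7 (−1.13), BCAT2 (−1.31), DIN1 (−0.74), AT4G14060 (−1.51), AT4G22230 (−1.07), AT2G15960 (−0.86), AT1G36060 (−0.87), AT3G22240 (−1.53), AT3G62550 (−0.68), AT1G66100 (−1.07) and AT1G70880 (−0.99). The 21 °C values that chose these genes enter both differences, so the direction is partly set by the choice. At 28 °C AT2G04070 had shoot means of 0.0699 RPKM in Col-0 and 0.122 RPKM in chl1-5, and AT4G12735 had 0.179 and 0.527 RPKM. At such levels the log2(RPKM + 1) scale keeps a 28 °C difference small, so their values mostly restate the fall at 21 °C.

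ELP gave −1.78 in shoots minus roots at 21 °C (limma adjusted p = 3.74e-07), with few reads in chl1-5 in both organs. Of the other genes listed here, the genotype difference in shoots departed from that in roots for 20 at 21 °C. The difference had adjusted p from 3.04e-23 to 3.88e-02, among 5700 genes called in all. It was higher in shoots for NRT1.1 (5.88), JAZ7 (0.73), BCAT2 (2.05), DIN1 (2.27), AT4G22230 (0.47), AT2G15960 (0.62), AT1G36060 (1.4), AT3G62550 (0.89) and AT1G66100 (0.87). It was lower in shoots for AT3G22240 (−0.28), AT5G13210 (−2.09), AT2G04050 (−1.55), UGT74E2 (−1.05), AT2G04070 (−1.50), AT2G18193 (−1.49), AT4G12735 (−1.41), AT2G41730 (−1.37), AT1G13609 (−1.03), AT5G51440 (−1.39) and DTX1 (−0.98). Root means at 21 °C were at most 0.0689 RPKM in either genotype for AT2G04050, AT2G04070, AT4G12735, AT3G62550 and AT1G66100. For those genes the difference between organs mostly restates the shoot value.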

How the results depend on the processing

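Over 167 named genes and 2624 alternatives, 2528 kept direction and call, 90 lost the call, 6 gained it and 0 reversed. All 16 alternatives for NRT1.1 kept its call. The 8162 called genes became 5914 at a filter of 5 RPKM, 9053 in a fit of the 6 libraries alone, 8349 with voom and 6960 to 7500 when 1 replicate was left out. Genes past 2-fold, 37 in all, numbered 76 (25 higher, 51 lower) at a pseudocount of 0.1, 101 (39 higher, 62 lower) with voom, and 21 (13 lower) at a filter of 5 RPKM. For shoots against roots, median-of-ratios scaling gave 3274 genes higher and 2556 lower in shoots in place of 2095 and 3605, and a filter of 5 RPKM gave 2228 lower. Median-of-ratios scaling also turned round the balance of the temperature difference, to 4377 higher and 5136 lower. The cause was not tested, except that a stricter filter tests fewer genes. With a replicate block 7887 genes were called. Equal-numbered libraries gave residual correlations of −0.188, −0.142 and −0.473 at 21 °C and of −0.493, −0.411 and 0.0514 at 28 °C. Deviations from a mean of 3 libraries constrain each other, so these values cannot settle whether the replicate numbers mark a pairing. Library depth limits genes under 1 RPKM most.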

Other observations

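Genes outside the lists, chosen after their values were seen and with no test of a theme, included several of mitochondrial stress and of detoxification that were lower in chl1-5 shoots at 21 °C. AOX1A, the alternative oxidase of mitochondria, had 18.9, 18.7 and 19.2 RPKM in chl1-5 and 32.1, 31.4 and 33.1 RPKM in Col-0 (−0.73, limma adjusted p = 1.31e-11). The mitochondrial ATPase gene BCS1 had 1.78, 1.95 and 1.75 RPKM in chl1-5 and 4.43, 4.38 and 4.50 RPKM in Col-0 (−0.95). NAC13, a NAC factor of mitochondrial retrograde signalling, had 3.57, 3.24 and 3.47 RPKM in chl1-5 and 6.33, 6.43 and 5.76 RPKM in Col-0 (−0.70). In none of these did the genotypes overlap. At 28 °C AOX1A was higher in chl1-5 by 0.22, a difference of 0.95 between temperatures. There BCS1 was higher too, by 0.39, and NAC13 gave 0.06 (limma adjusted p = 0.372). NDA2 (0.07, adjusted p = 0.208) and NAC017 (−0.07, adjusted p = 0.179), of the same pathway, did not pass the test.

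The vacuolar transporter gene ABCC3 had 9.89, 9.99 and 9.74 RPKM in chl1-5 and 19.65, 20.04 and 19.93 RPKM in Col-0 (−0.94). The glutathione transferase gene GSTU24 had 4.98, 5.07 and 4.65 RPKM in chl1-5 and 9.65, 10.2 and 9.77 RPKM in Col-0 (−0.88). The glucosyltransferase gene UGT73C1 had 2.6, 2.59 and 2.71 RPKM in chl1-5 and 6.83, 7.07 and 6.76 RPKM in Col-0 (−1.12). All 3 were clearly separated between genotypes at 21 °C, whereas the glutathione transferases GSTU25 (−0.06, adjusted p = 0.47) and GSTU19 (−0.02, adjusted p = 0.606) did not pass the test. The fall was not seen at 28 °C, where ABCC3 (0.14) and UGT73C1 (0.17) were higher in chl1-5 and GSTU24 gave 0.03 (limma adjusted p = 0.587). The auxin transporter gene ABCB4 had 2.82, 3.01 and 2.92 RPKM in chl1-5 and 7.21, 7.45 and 6.94 RPKM in Col-0 (−1.07), and the nucleolin gene NUC-L2 had 1.23, 1.31 and 1.28 RPKM in chl1-5 and 4.06, 3.99 and 3.78 RPKM in Col-0 (−1.12). At 28 °C ABCB4 gave −0.16 and NUC-L2 −0.17.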
